A study of Mus musculus with 28 samples.

Results

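The growth hormone and STAT5 axis of the liver was followed through 10 genes chosen by symbol, namely Ghr, Stat5a, Stat5b, Socs2, Cish, Igf1, Igfals, Bcl6, Cux2 and Onecut1. Each of the 3 deposited tables lists 20416 genes, and each of the 10 symbols had 1 row in every table. Polyadenylated RNA was sequenced from 28 livers of male C57BL/6 mice in 2 models of non-alcoholic steatohepatitis. The first table holds 4 livers of mice on a methionine- and choline-deficient diet (MCD) and 4 livers of mice on a matched low-fat control diet (CD). The other 2 tables hold the STAM model, in which mice were given streptozotocin, a toxin of pancreatic beta cells, at postnatal day 2 and a high-fat diet afterwards. Each STAM table has 5 STAM and 5 control livers, taken at 4 or at 10 weeks of age. The STAM controls are labelled with a control diet, and the labels do not say whether they received the vehicle of streptozotocin.

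Some labels limit these groups. MCD and CD samples are titled as 4 weeks and carry a study duration of 5 weeks. The 4-week STAM samples are labelled with the high-fat diet although the study text starts that diet at week 4. Nothing in the labels says that each sample came from a separate mouse, so p-values measure the spread between these samples. In whole liver, fewer cells of a type and less RNA per cell cannot be told apart.

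Pituitary growth hormone binds its receptor on hepatocytes and activates the kinase JAK2, which phosphorylates the transcription factors STAT5A and STAT5B. STAT5 then enters the nucleus, switches on genes for circulating growth factors, and induces inhibitors of the SOCS family that damp the same receptor. In rodents growth hormone is secreted in pulses in males and more evenly in females, and STAT5B carries much of the resulting sex bias of liver gene expression. BCL6 and CUX2 are repressors with male- and female-biased expression in mouse liver.

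The letters that STAT5 dimers favour, TTCNNNGAA, were searched in RefSeq promoter windows of the GRCm38.p6 build. The outer letters read the same on both strands, so a match on one strand is a match on the other. The motif lay within the 250 bases before the start in 7.02% of 32851 windows, and in 4 of 16 windows of the 9 genes that have one, which belong to Bcl6 and Igfals. Socs2 had no window in this set, so its promoter could not be searched. In the full 300-base window, which was looked at after the data, the motif was found in 8.30% of all windows and in 5 of 16 windows of these genes, with Cish added. The 3 stretches below are shown because these genes carry the matches. Capitals mark the motif and each run is given 5′ to 3′ on the gene's strand.
Cish, chr9:107296599-107296683, plus strand: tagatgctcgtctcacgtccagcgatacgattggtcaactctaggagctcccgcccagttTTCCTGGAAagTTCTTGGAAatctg
Bcl6, chr16:23981353-23981461, minus strand: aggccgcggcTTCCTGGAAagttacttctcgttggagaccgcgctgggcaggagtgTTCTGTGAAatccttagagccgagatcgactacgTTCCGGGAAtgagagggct
Igfals, chr17:24878163-24878192, plus strand: ctgccaggtgTTCCTAGAAgaggccctggg
The Cish stretch has 2 motifs with 2 bases between them. The first begins at the RefSeq start itself, so neither lies before that start. That start lies 30 bases before the start of the Cish row in the files. The Bcl6 stretch has 3 motifs with gaps of 37 and 25 bases. It belongs to an alternative RefSeq start, 7329 bases inside the gene as the files place it, while another Bcl6 window holds 1 motif. The Igfals stretch belongs to a RefSeq start 539 bases before the Igfals row. Windows of 250 bases with at least 3 motifs made up 0.0274% of all windows. ATTGAT, a core motif of the onecut factor encoded by Onecut1, was found in 6.72% of all 250-base windows and in 0 of 16 windows of these genes. A match describes letters, not a site.

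Values are the authors' log2 CPM, that is, log2 read counts scaled to a common library total after their scaling of the libraries. Depth was 16.2 to 25.9 M reads per library. Every one of the 10 genes passed the filter on low values in every table, which kept the 15312 genes above the 25th percentile of mean level. Differences were tested with limma across all genes kept, with Benjamini-Hochberg adjustment, and called at an adjusted p under 0.05. Directions hold relative to the authors' scaling. Scaling by total reads instead shifts the median difference of all genes by 0.42 (log2) in the MCD table and by 0.29 in the 10-week STAM table. With it, 86.1% of MCD calls and 88.0% of 10-week STAM calls were higher, against 52.9% and 53.0% under the authors' scaling. At 4 weeks that share was 83.7%, against 66.6%.

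The labelled tissue was checked against 9 hepatocyte markers, and all had reads in every group. Their summed level was 75121 to 99990 CPM in MCD livers and 100656 to 121083 CPM in CD livers. At 4 weeks it was 116461 to 130136 CPM in STAM livers and 143173 to 159305 CPM in controls, and at 10 weeks 54219 to 68486 CPM in STAM livers and 92275 to 119753 CPM in controls. Under the authors' scaling these ranges did not overlap in any of the 3 tables, with a narrow gap in the MCD table. The sums were not taken under other scalings. Of the 9 markers 7 fell in MCD, 1 in 4-week STAM and 7 in 10-week STAM livers. Alb, with group means of 15.1 to 16.8 log2 CPM, made the largest part of these sums. It was the marker called at 4 weeks (-0.34, limma adjusted p = 0.0284). In MCD livers Alb (0.10) and Tat (0.35) were not called. Of 10 macrophage markers, 6 rose in MCD, 9 in 4-week STAM and 7 in 10-week STAM livers. Their summed level was 722 to 1404 CPM in MCD and 391 to 625 CPM in CD livers, 611 to 843 CPM in 4-week STAM livers and 420 to 565 CPM in their controls, and 582 to 773 CPM in 10-week STAM livers and 407 to 593 CPM in their controls. The last of these pairs overlapped. Of 10 stellate cell markers 7 rose in MCD livers, 1 rose and 1 fell at 4 weeks, and 7 rose and 1 fell at 10 weeks. Of 8 cholangiocyte markers 4 rose in MCD, 4 in 4-week STAM and 5 in 10-week STAM livers, and none fell. Their summed level was 134 to 214 CPM in MCD and 98.4 to 117 CPM in CD livers. At 4 weeks it was 124 to 158 CPM in STAM livers and 50.7 to 90.2 CPM in controls. At 10 weeks it was 92.4 to 374 CPM in STAM livers and 46.6 to 68.1 CPM in controls. These ranges did not overlap in any table. Spp1 made the largest part of these sums, with means of 6.92 log2 CPM in MCD and 6.79 in 4-week STAM livers. It rose by 0.70 in MCD, 1.30 in 4-week and 2.01 in 10-week STAM livers. Sums without Spp1 were not taken, so the lack of overlap may rest on this gene. Of 8 sinusoidal endothelial markers 3 fell in MCD livers, where by total reads 4 rose and 0 fell, 3 fell in 4-week STAM livers, and 2 rose and 1 fell at 10 weeks. Their summed level at 4 weeks was 297 to 368 CPM in STAM livers and 379 to 446 CPM in controls. Of 12 markers of other leukocytes 3 rose in MCD, 1 in 4-week STAM and 2 in 10-week STAM livers, and none fell. Of all genes 22.6% were called higher in MCD, 6.52% in 4-week STAM and 25.3% in 10-week STAM livers. The shares called lower were 20.1%, 3.27% and 22.5%. Counts of other leukocyte markers were near or below the shares called higher. By quantile scaling 1 cholangiocyte marker rose in MCD, 3 in 4-week and 1 in 10-week STAM livers, and the median of the other leukocyte markers turned to -0.24 in MCD and -0.10 in 10-week STAM livers. Under scaling by total reads 6 hepatocyte markers fell and 2 rose in MCD livers, 0 fell at 4 weeks and 3 fell at 10 weeks. Quantile scaling left 3 hepatocyte markers lower and 1 higher in MCD livers, 0 lower at 4 weeks and 2 lower at 10 weeks. What part these shifts have in the results was not tested.

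In MCD livers 9 of the 10 genes were called, 7 lower and 2 higher, where 42.7% of all genes were called, 20.1% as lower and 22.6% as higher. In 4-week STAM livers 4 were called, all lower, where 9.8% of all genes were called, 6.52% as higher and 3.27% as lower. In 10-week STAM livers 6 were called, 4 lower and 2 higher, where 47.8% of all genes were called, 22.5% as lower and 25.3% as higher. Scaling by total reads gave 4 higher and 3 lower at 10 weeks, where 7972 of 15312 genes were called. Quantile scaling gave 1 higher and 3 lower there, where 6307 of 15305 genes were called. In MCD livers they gave 2 higher and 6 lower, and 1 higher and 7 lower, among 8808 and 6231 genes called. At 4 weeks each gave 4 lower, among 1650 and 1430 genes called. Values of MCD and CD livers did not overlap for 7 genes, all of them lower, where 40.1% of all genes were free of overlap (20.9% higher and 19.2% lower). At 4 weeks this held for 4 genes, all lower, against 10.1% of all genes (6.38% higher and 3.67% lower). At 10 weeks it held for Ghr, Igfals and Bcl6, which were lower, and Socs2, which was higher, against 33.1% of all genes (16.8% higher and 16.3% lower). The median difference of the 10 genes was -1.43 (log2) in MCD, -0.49 in 4-week and -0.13 in 10-week STAM livers, beside medians of all genes of 0.07, 0.01 and 0.05.

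**Figure D1:**
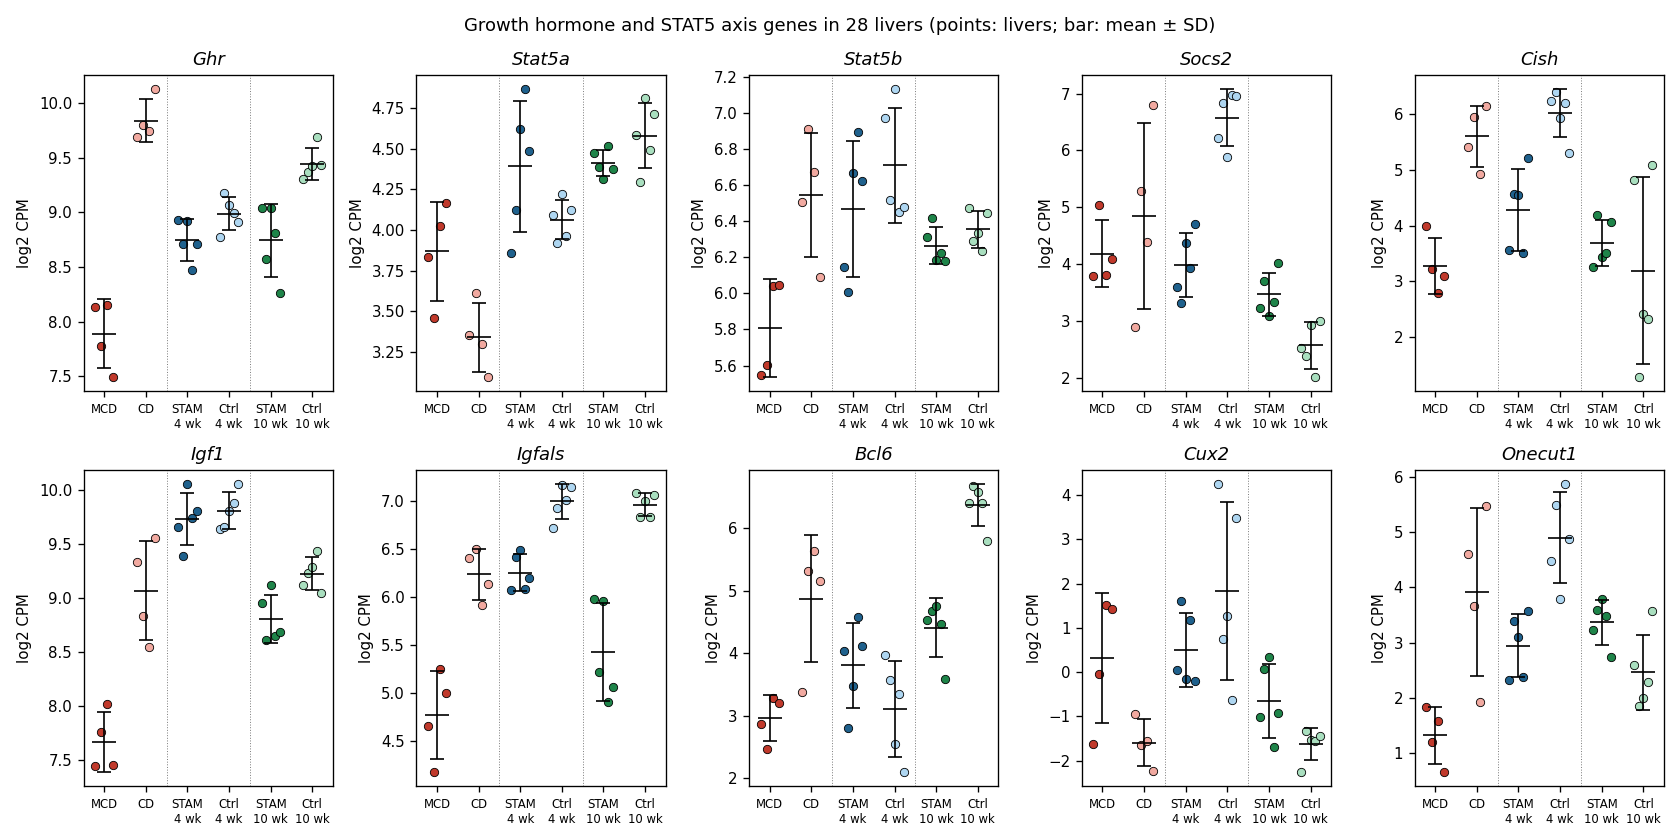
Level of each of the 10 genes (log2 CPM) in every liver, with points for livers and bars for the mean and SD of each group. Dotted lines part the 3 tables, which were scaled separately, so levels compare only within a table, and the Ghr points of MCD livers all lie below those of CD livers.

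**Figure D2:**
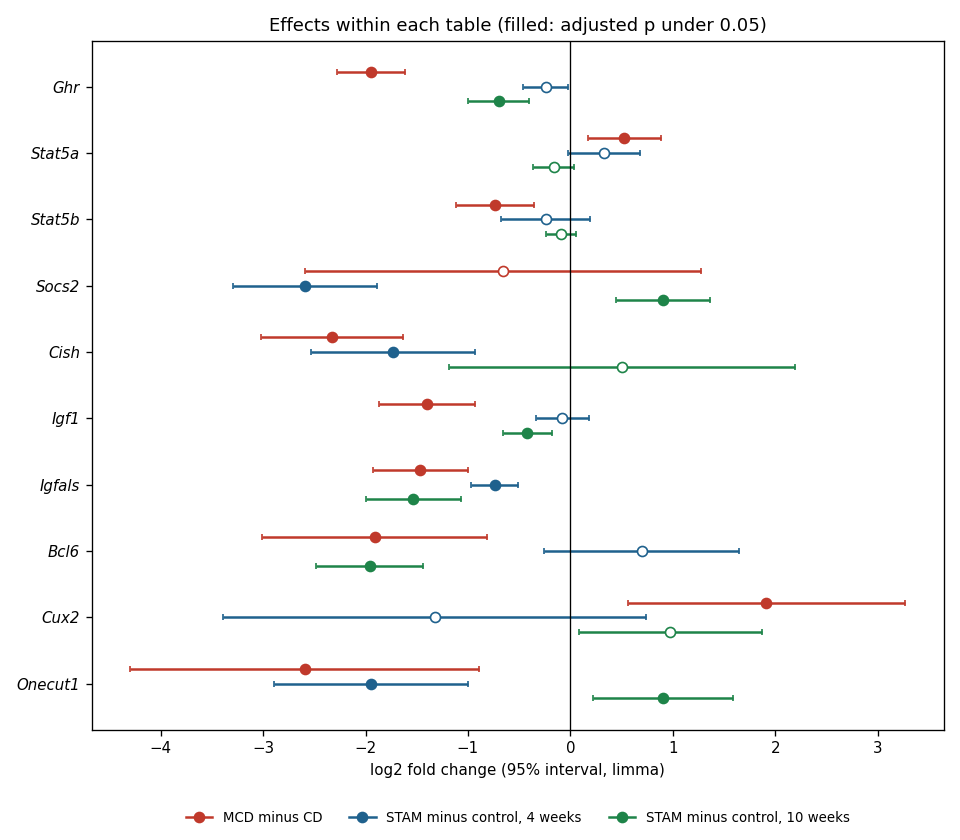
Difference between model and control (log2, with its 95% interval) for each gene in the 3 comparisons, with filled points where the adjusted p of limma was under 0.05. Igfals lies left of 0 in all 3 comparisons, while Socs2 and Onecut1 lie on opposite sides at 4 and 10 weeks.

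Per kilobase of counted length, which allows genes to be compared, Ghr had the highest level of the 10 in MCD, CD and both 10-week groups, and Igf1 in both 4-week groups. In CD livers the level was 214 CPM per kb for Ghr, 78.9 for Igf1 and 36.2 for Igfals. Igfals was the third in all 6 groups. At the low end Cux2 came last in all 6 groups, at 0.332 CPM per kb in MCD livers and 0.0660 in CD livers. Stat5b stood above Stat5a in every group. Ranges of Ghr and Igf1 per kb did not overlap in MCD livers, CD livers or 10-week controls, and overlapped in 10-week STAM livers and both 4-week groups. Within a library Igf1 over Ghr was 0.54 to 0.82 in 10-week STAM livers, so Ghr was the higher in each of them. That ratio was 0.98 to 1.47 in 4-week STAM livers and 0.85 to 1.34 in their controls, so the order differed between livers.

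Ghr encodes the growth hormone receptor (NM_010284, mm10 chr15:3317755-3583352, minus strand). It was 8.14, 7.78, 8.15 and 7.49 log2 CPM in the 4 MCD livers, against 9.69, 9.80, 9.75 and 10.13 in the 4 CD livers. Every MCD liver lay below every CD liver. The difference was -1.95 (SE 0.15, 95% interval -2.28 to -1.61, limma adjusted p = 1.39e-06), which is 3.86-fold lower. At 10 weeks Ghr was 9.04, 8.57, 9.04, 8.81 and 8.26 in STAM livers, against 9.31, 9.37, 9.42, 9.69 and 9.43 log2 CPM in controls. It fell by 0.70 (SE 0.14, limma adjusted p = 0.00119) with no overlap. At 4 weeks Ghr was 8.93, 8.71, 8.92, 8.47 and 8.71 in STAM livers and 8.78, 9.18, 9.07, 8.99 and 8.92 in controls, a difference of -0.24 (95% interval -0.46 to -0.02) that did not pass (limma adjusted p = 0.172).

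Stat5a and Stat5b encode the paired STAT5 proteins and lie beside each other on mm10 chromosome 11, with 8765 bases between their ends. Stat5b (NM_001113563) was 5.55, 5.60, 6.04 and 6.05 log2 CPM in MCD livers, against 6.51, 6.91, 6.67 and 6.09 in CD livers. The groups did not overlap, although the lowest CD liver stood close to the highest MCD livers. Stat5b fell by 0.74 (SE 0.17, limma adjusted p = 0.00487) in MCD livers, with adjusted p = 0.160 under scaling by total reads and 0.0507 without a filter. Stat5a (NM_011488) was 3.83, 3.46, 4.02 and 4.16 in MCD livers, against 3.35, 3.62, 3.30 and 3.10 in CD livers. One MCD liver lay inside the CD range. The rise was 0.53 (SE 0.17, limma adjusted p = 0.0216), and the call was lost when CD replicate 4 (adjusted p = 0.0559), MCD replicate 3 (0.0630) or MCD replicate 4 (0.0604) was left out, and without a filter (0.0838).

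Neither STAT5 gene was called in STAM livers. At 4 weeks Stat5a differed by 0.33 (limma adjusted p = 0.244) and Stat5b by -0.24 (0.509). At 10 weeks Stat5a differed by -0.16 (limma adjusted p = 0.159) and Stat5b by -0.09 (0.296), and both signs turned under scaling by total reads, to 0.13 and to 0.20 (adjusted p = 0.284 and 0.0371). Without control 2 Stat5a passed at -0.23 (limma adjusted p = 0.0322). The ratio of the pair within a library needs no scaling between libraries. Per kilobase Stat5b over Stat5a was 2.59 to 3.49 in MCD livers and 6.31 to 8.21 in CD livers. It was 2.92 to 3.84 in 4-week STAM livers and 4.05 to 5.94 in their controls, again without overlap. At 10 weeks the ratio was 2.58 to 3.23 in STAM livers and 2.27 to 3.15 in controls, and these overlapped.

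Socs2 encodes a STAT5-induced inhibitor of growth hormone signalling (NM_007706, mm10 chr10:95411490-95416857, minus strand). In 4-week STAM livers it was 3.60, 3.33, 4.38, 3.93 and 4.70 log2 CPM, against 6.22, 6.84, 5.88, 6.98 and 6.96 in controls. The highest STAM liver was below the lowest control. Socs2 fell by 2.59 (SE 0.31, 95% interval -3.29 to -1.89, limma adjusted p = 0.00104), which is 6.02-fold. In 10-week STAM livers it was 3.23, 3.70, 3.10, 3.33 and 4.02, against 2.52, 2.38, 2.94, 2.02 and 3.01 in controls. Here every STAM liver was above every control, and Socs2 rose by 0.90 (SE 0.21, limma adjusted p = 0.00372). Between ages the STAM groups averaged 3.48 at 10 weeks and 3.99 at 4 weeks, while controls averaged 2.57 and 6.58 at the same ages, in tables scaled separately. In MCD livers Socs2 was 3.79, 5.04, 3.82 and 4.10, against 2.90, 5.29, 4.39 and 6.81 in CD livers. The CD livers spanned the MCD livers, and the difference of -0.66 (95% interval -2.59 to 1.27) did not pass (limma adjusted p = 0.551). It was -1.31 without CD replicate 1, -0.0076 without CD replicate 4 and -0.24 under scaling by total reads, and passed in none of these (limma adjusted p = 0.141, 0.994 and 0.802).

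Cish encodes the other SOCS-family inhibitor induced by STAT5 (NM_009895, mm10 chr9:107296689-107301961, plus strand). The pair of motifs printed above lies just before the start of this row, but not before the RefSeq start. In MCD livers it was 3.99, 3.22, 2.80 and 3.10 log2 CPM, against 5.41, 5.94, 4.93 and 6.14 in CD livers. There was no overlap, and Cish fell by 2.33 (SE 0.31, limma adjusted p = 0.000274), which is 5.02-fold. In 4-week STAM livers it was 3.57, 4.57, 4.54, 3.51 and 5.22, against 6.24, 6.39, 5.93, 6.20 and 5.30 in controls. These groups did not overlap, by a narrow gap, and Cish fell by 1.73 (SE 0.36, limma adjusted p = 0.0161). At 10 weeks STAM livers had 3.26, 4.19, 3.44, 3.52 and 4.06, and controls had 4.82, 1.29, 2.41, 2.33 and 5.09. Controls lay on both sides of the STAM livers, with 2 high and 3 low. The log2 difference was 0.50 (SE 0.74, limma adjusted p = 0.607), while the mean of linear CPM was 13.3 in STAM livers and 15.0 in controls, so the sign depends on the scale.

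Igf1 encodes insulin-like growth factor 1, the main circulating mediator of growth hormone (NM_001111275, mm10 chr10:87859056-87937047, plus strand). MCD livers had 7.44, 7.77, 8.02 and 7.45 log2 CPM, against 9.34, 8.84, 8.55 and 9.56 in CD livers. Without overlap, Igf1 fell by 1.40 (SE 0.21, limma adjusted p = 0.00035), which is 2.64-fold. At 10 weeks it was 8.96, 8.61, 9.12, 8.65 and 8.69 in STAM livers, against 9.13, 9.23, 9.29, 9.44 and 9.05 in controls. One STAM liver lay inside the control range. The fall of 0.42 (SE 0.11, limma adjusted p = 0.00682) was lost under scaling by total reads (-0.13, adjusted p = 0.268) and quantile scaling (-0.15, adjusted p = 0.178). At 4 weeks STAM livers had 9.66, 9.39, 10.06, 9.74 and 9.81 and controls 9.64, 9.66, 9.81, 9.88 and 10.06. That difference was -0.08 (95% interval -0.34 to 0.18, limma adjusted p = 0.761), and became 0.01 without STAM replicate 2.

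Igfals encodes the acid-labile subunit, which holds circulating IGF1 in a long-lived ternary complex (NM_008340, mm10 chr17:24878770-24882008, plus strand). It was called lower without overlap in all 3 comparisons. MCD livers had 4.66, 4.18, 5.25 and 5.00 log2 CPM, against 6.40, 6.50, 5.91 and 6.14 in CD livers, a fall of 1.46 (SE 0.21, limma adjusted p = 0.00025). At 4 weeks STAM livers had 6.08, 6.42, 6.49, 6.08 and 6.20, against 6.72, 6.92, 7.16, 7.01 and 7.14 in controls, a fall of 0.74 (SE 0.11, limma adjusted p = 0.000986). Igfals was lower at the age when Igf1 was not called. At 10 weeks it was 5.98, 5.22, 5.96, 4.91 and 5.07 in STAM livers, against 7.08, 6.83, 7.0, 6.83 and 7.06 in controls, a fall of 1.53 (SE 0.21, limma adjusted p = 0.000223). The ratio of Igf1 to Igfals per kilobase in a library was 2.34 to 3.77 in 4-week STAM livers and 1.87 to 2.26 in controls. At 10 weeks it was 2.35 to 4.01 in STAM livers and 1.18 to 1.82 in controls, and neither pair of ranges overlapped. In MCD livers it was 1.63 to 3.58, and in CD livers 1.51 to 3.20, which overlap.

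Bcl6 encodes a repressor that is male-biased in mouse liver and whose binding motif resembles that of STAT5 (NM_009744, mm10 chr16:23965052-23988612, minus strand). In 10-week STAM livers it was 4.53, 4.68, 4.76, 4.47 and 3.59 log2 CPM, against 6.39, 6.66, 6.57, 6.40 and 5.80 in controls. All STAM livers lay below all controls, and Bcl6 fell by 1.96 (SE 0.23, limma adjusted p = 0.000105), which is 3.89-fold. MCD livers had 2.87, 2.48, 3.28 and 3.20, against 3.38, 5.31, 5.63 and 5.15 in CD livers. The first CD liver stood close to the MCD livers, and the fall was 1.91 (SE 0.48, limma adjusted p = 0.0130). At 4 weeks the values were 4.04, 2.80, 3.48, 4.58 and 4.12 in STAM livers and 3.97, 3.57, 2.55, 3.34 and 2.10 in controls. The groups overlapped, and the difference of 0.70 (95% interval -0.26 to 1.65) did not pass (limma adjusted p = 0.368). Control livers averaged 6.36 at 10 weeks and 3.11 at 4 weeks, side by side across tables scaled separately.

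Cux2 encodes a homeobox repressor that is female-biased in mouse liver (NM_007804, mm10 chr5:121860216-122047825, minus strand), and it rested on few reads. MCD livers had 8, 24, 64 and 85 reads, or -1.62, -0.03, 1.52 and 1.42 log2 CPM. CD livers had 10, 6, 6 and 3 reads, or -0.95, -1.64, -1.55 and -2.24 log2 CPM. Of the MCD livers, 3 lay above all CD livers and 1 inside their range. The rise of 1.91 (SE 0.62, limma adjusted p = 0.0262) was lost in 9 of 15 alternatives, among them leaving out CD replicate 2 (adjusted p = 0.0567), 3 (0.0521) or 4 (0.0703) and MCD replicate 3 (0.0816) or 4 (0.0782). At 4 weeks STAM livers had 19, 59, 20, 48 and 18 reads, against 295, 28, 42, 13 and 195 in controls. Controls 1 and 5 stood far above the rest, and the difference of -1.33 (SE 0.91) did not pass (limma adjusted p = 0.435). At 10 weeks STAM livers had 13, 23, 24, 6 and 12 reads and controls 3, 8, 7, 7 and 7. That difference of 0.98 (SE 0.42) missed the threshold (limma adjusted p = 0.068), with adjusted p = 0.0218 under scaling by total reads and 0.0243 without STAM replicate 4. Under quantile scaling the difference was 0.042 (limma adjusted p = 0.954), and it was 0.73 without STAM replicate 3 (0.171).

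Onecut1 encodes the liver-enriched homeobox factor HNF6 (NM_008262, mm10 chr9:74861921-74889647, plus strand). In MCD livers it was 1.84, 1.21, 1.58 and 0.66 log2 CPM, against 4.60, 3.67, 1.93 and 5.47 in CD livers. The groups did not overlap, with CD replicate 3 next to the MCD livers. Onecut1 fell by 2.59 (SE 0.73, limma adjusted p = 0.0238), a call lost without MCD replicate 3 (adjusted p = 0.0506) or MCD replicate 4 (0.0782), without a filter (0.0567) and with voom (0.0637). In 4-week STAM livers it was 2.32, 3.38, 3.09, 2.37 and 3.57, against 4.47, 5.49, 3.78, 5.87 and 4.87 in controls. It fell by 1.95 (SE 0.42, limma adjusted p = 0.0199) without overlap, and the adjusted p was 0.0509 without STAM replicate 1. At 10 weeks it was 3.24, 3.60, 3.78, 3.47 and 2.74 in STAM livers, against 2.59, 1.85, 1.99, 2.29 and 3.57 in controls. Control 5 lay among the STAM livers. The rise of 0.91 (SE 0.31, limma adjusted p = 0.0327) was lost when any of 8 of the 10 libraries was left out, controls 1 to 4 and STAM livers 1 to 4, with adjusted p of 0.0506 to 0.0779, and also under quantile scaling (0.0828) and without a filter (0.0861).

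Transcripts annotated in GENCODE M21 overlap some of these genes. Gm20649 runs along Onecut1 on the same strand, and Igf1os, Gm17040 and Gm17041, Gm3970, Gm37419 and the end of Stat3 lie opposite Igf1, Cish, Cux2, Bcl6 and Stat5a. The libraries are stranded but no source used here states the strand setting of the counting, so how shared reads were split is uncertain.

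The effect of STAM was then compared between ages, as the effect at 10 weeks minus the effect at 4 weeks, with limma over 15022 genes. Of all genes 20% were called (8.89% higher and 11.2% lower), and 4 of the 10, 2 higher and 2 lower. Socs2 differed by 3.49 (SE 0.40, limma adjusted p = 3.11e-05), since it was lower in STAM livers at 4 weeks and higher at 10 weeks. Onecut1 changed in the same manner, with a difference of 2.85 (SE 0.55, limma adjusted p = 0.00172). Bcl6 went the other way by -2.66 (SE 0.51, limma adjusted p = 0.00173), with the STAM effect called lower at 10 weeks and not called at 4 weeks. Igfals differed by -0.79 (SE 0.24, limma adjusted p = 0.0270), a call lost without 10-week STAM replicate 2 (adjusted p = 0.0508) or 5 (0.0510), or 4-week STAM replicate 3 (0.0518). That call was also lost under scaling by total reads (-0.58, limma adjusted p = 0.0671), quantile scaling (-0.69, 0.0614) and without a filter (0.0559). Cish differed by 2.24 with adjusted p = 0.0706, and this passed in limma without 10-week control 1 (0.0255) or 5 (0.0190), under scaling by total reads (0.0444) and with voom (0.0385). Ghr (-0.46, adjusted p = 0.0778), Stat5a (-0.49, 0.0778), Igf1 (-0.34, 0.163), Stat5b (0.15, 0.655) and Cux2 (2.30, 0.106) were not called in the same limma fit. Leaving out 10-week STAM replicate 1 (0.0425) or 3 (0.0428) or 4-week STAM replicate 4 (0.0474) made Ghr pass, and 10-week control 2 (0.0492) or 4-week STAM replicate 1 (0.0137) made Stat5a pass. Cux2 passed without 4-week control 4 (limma adjusted p = 0.0196).

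The effect of MCD was likewise compared with that of STAM at 10 weeks, over 14986 genes of which 27.9% were called (12.9% higher and 15% lower). These models differ in diet, toxin, age and library scaling together, which cannot be told apart. Of the 10 genes, 6 were called, 1 higher and 5 lower. Ghr fell further in MCD, by -1.25 (SE 0.22, limma adjusted p = 0.000302), and so did Igf1, by -0.98 (SE 0.24, limma adjusted p = 0.00531). The STAT5 genes moved apart from each other, with 0.69 for Stat5a (limma adjusted p = 0.00823) and -0.65 for Stat5b (0.0129, or 0.0564 under scaling by total reads). Onecut1 differed by -3.50 (SE 0.78, limma adjusted p = 0.00338). Cish differed by -2.83 (SE 0.92, limma adjusted p = 0.0319), and this call was lost when any of 9 of the 18 libraries was left out, with adjusted p of 0.0501 to 0.0597. Those libraries were CD replicates 2 and 4, MCD replicates 2 to 4, 10-week controls 3 and 4, and 10-week STAM replicates 2 and 5. Igfals differed by 0.07 (95% interval -0.62 to 0.76, limma adjusted p = 0.908) and Bcl6 by 0.05 (95% interval -1.10 to 1.19, limma adjusted p = 0.961), intervals that do not show equal effects. Socs2 differed by -1.56 (limma adjusted p = 0.163, or 0.0133 without CD replicate 1), and Cux2 by 0.94 (limma adjusted p = 0.401).

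**Figure D3:**
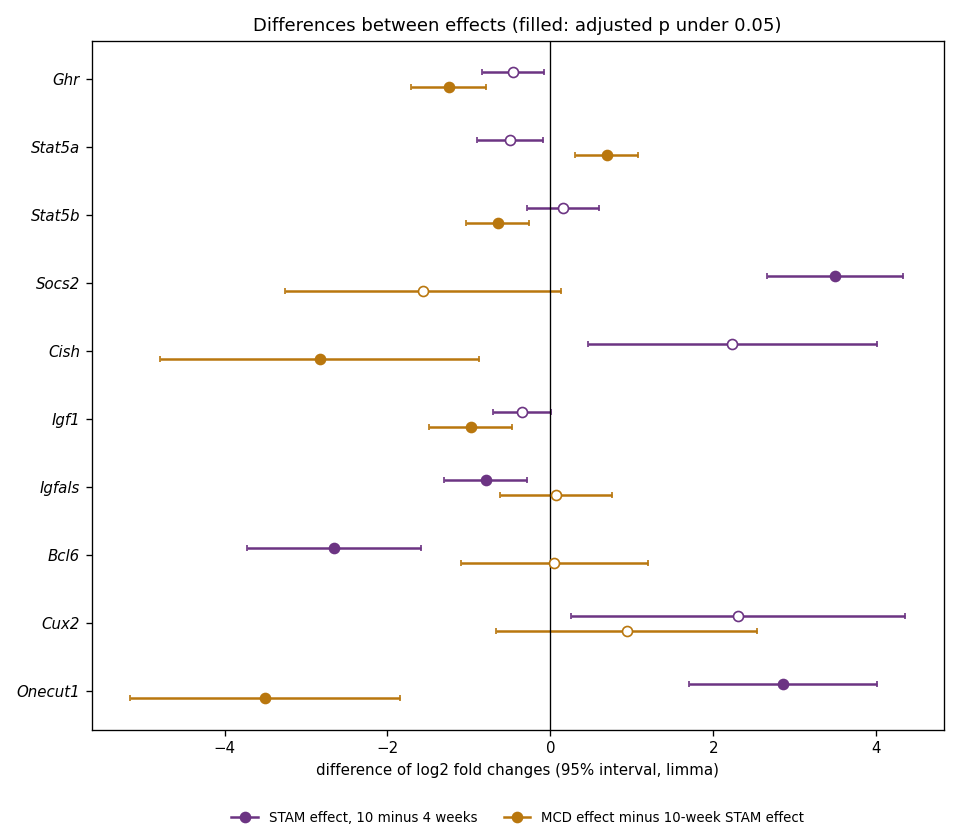
Difference between effects (log2, with its 95% interval) for each gene, as the STAM effect at 10 weeks minus that at 4 weeks and as the MCD effect minus the 10-week STAM effect. Filled points passed limma's test, and Socs2 and Onecut1 lie at 3.49 and 2.85 in the contrast of ages.

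The 10 genes differed widely in how much livers of one group varied. Socs2 had an SD of 1.64 log2 units among CD livers, at the 94.4th percentile of all genes tested, and Onecut1 there had 1.51, at the 93.5th. Among 10-week controls Cish had an SD of 1.68, at the 95.9th percentile. Cux2 reached 2.01 among 4-week controls, at the 97.9th. All 4 are control groups, and the widest spread outside the controls was that of Cux2 among MCD livers, 1.47, at the 96.3th percentile. The lowest SD was that of Stat5a among 10-week STAM livers, 0.080, at the 12.5th percentile. Stat5b followed with 0.10 both among 10-week STAM livers (21.0th percentile) and among their controls (19.1th). The median SD of all genes lay between 0.194 and 0.239 over the 6 groups.

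**Figure D4:**
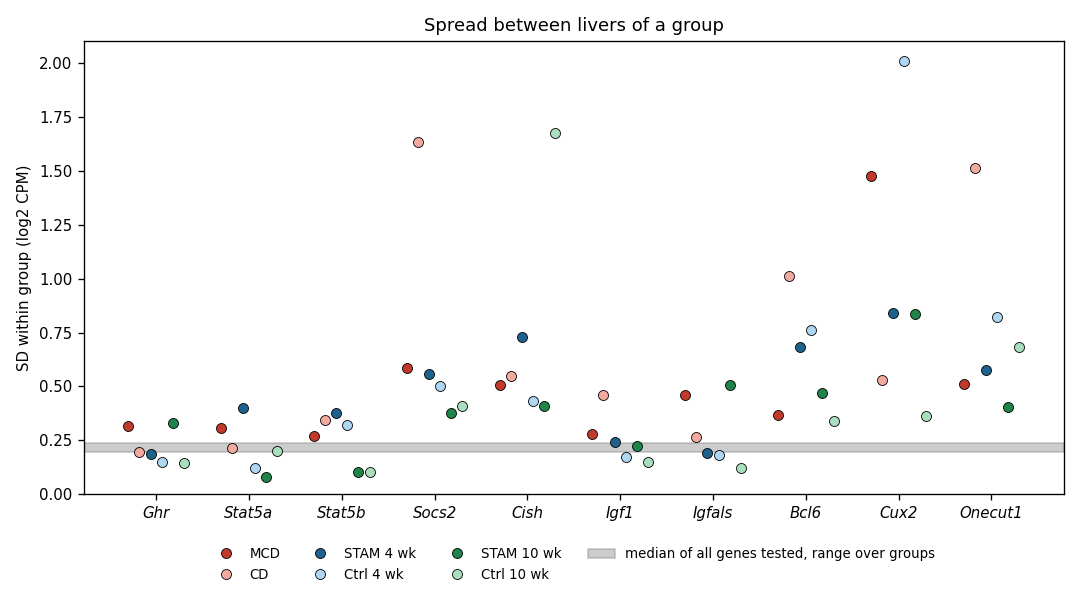
SD between livers of each group (log2 CPM) for each of the 10 genes, with a grey band from the lowest to the highest median SD of all genes over the 6 groups. Socs2, Cish, Cux2 and Onecut1 each have a control group above 1.5.

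Other genes of the axis came from lists of known members. Of 24 further genes of growth hormone receptor signalling and its brakes, 2 rose and 2 fell in MCD livers, 2 rose and 2 fell in 4-week STAM livers, and 4 rose and 8 fell in 10-week STAM livers. Of all genes 42.7%, 9.8% and 47.8% were called in these comparisons, so 4 of 24 in MCD livers lay below that share and 12 of 24 at 10 weeks near it. Medians of the list were -0.01, 0.00 and -0.12 (log2). The direction of this list turned with the scaling: by total reads 14 rose and 0 fell in MCD livers (median 0.41), and 10 rose and 2 fell in 10-week STAM livers (median 0.16), a check added after the data were seen. Prlr, the prolactin receptor and a near relative of Ghr, fell by 1.80 (SE 0.17, limma adjusted p = 1.04e-05) in 10-week STAM livers and by 0.76 (SE 0.11, limma adjusted p = 0.00121) at 4 weeks. Sirpa, a membrane protein that recruits phosphatases, rose in all 3 comparisons, by 0.94 in MCD, 0.71 in 4-week and 1.37 in 10-week STAM livers. Macrophage markers rose in the same comparisons (6, 9 and 7 of 10), and what part they have in the Sirpa rise was not tested. Irs2, an adaptor of insulin and IGF1 receptors, rose by 1.18 (SE 0.18, limma adjusted p = 0.000237) in 10-week STAM livers. Jak1 rose by 0.42 in MCD livers, where Stat3 fell by 0.58 (limma adjusted p = 0.00588 and 0.0208), a fall lost by total reads (-0.15, adjusted p = 0.496).

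In the IGF system beyond Igf1 and Igfals, 9 of 14 genes tested rose and 0 fell in 10-week STAM livers. Of these 9, Stc1 (3.82), Stc2 (3.71) and Pappa (1.58) rested on few reads. Each 10-week control had 0 to 2, 0 to 2 and 1 to 3 reads of them. Each 10-week STAM liver had 8 to 25, 8 to 26 and 3 to 14. The rise of Pappa was lost by quantile scaling (0.54, limma adjusted p = 0.408). In MCD livers 4 of 14 rose and 1 fell, and 1 rose of 15 in 4-week STAM livers. The shares called among all genes were 47.8% at 10 weeks, 42.7% in MCD and 9.8% at 4 weeks. Under the authors' scaling the 5 of 14 in MCD livers and the 1 of 15 at 4 weeks did not exceed them. List medians under that scaling were 1.0 at 10 weeks, 0.37 in MCD and 0.06 at 4 weeks, beside 0.05, 0.07 and 0.01 for all genes. By quantile scaling 7 of 14 rose and 1 fell in MCD livers, where 6231 of 15304 genes were called. By total reads 8 of 14 rose and 0 fell there, where 8808 of 15311 genes were called. At 10 weeks 10 rose by quantile scaling and 11 by total reads, and 0 fell. Igfbp1, which encodes a binding protein that insulin represses, averaged 8.17 log2 CPM in 10-week STAM livers and 4.74 in controls, a rise of 3.43 (SE 0.28, limma adjusted p = 1.47e-05). In MCD livers it averaged 9.06, against 6.52 in CD livers, a rise of 2.54 (SE 0.26, limma adjusted p = 4.94e-05). Igfbp3, the main partner of IGF1 in the ternary complex, rose by 1.31 (SE 0.18, limma adjusted p = 0.000122) in 10-week STAM livers. Igf2, a growth factor of fetal liver, was the gene called at 4 weeks. It averaged 5.46 in 4-week STAM livers and -0.60 in controls, a rise of 6.06 (SE 0.32, limma adjusted p = 1.37e-06), on 474 to 1350 reads per STAM liver and 9 to 13 per control. The Igf2 effect at 10 weeks minus that at 4 weeks was -5.06 (SE 0.62, limma adjusted p = 3.91e-05).

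**Figure D5:**
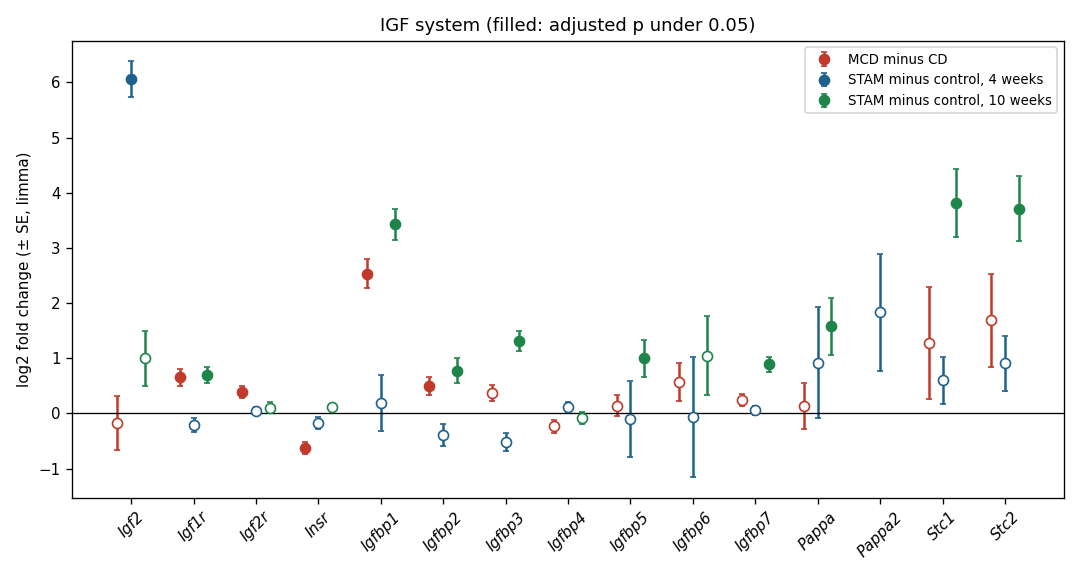
Difference between model and control (log2, with its SE) for 15 genes of the IGF system in the 3 comparisons, with filled points where the adjusted p of limma was under 0.05. Igf2 stands at 6.06 in 4-week STAM livers and Igfbp1 at 3.43 in 10-week STAM and 2.54 in MCD livers.

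Genes with a sex bias that depends on growth hormone pulses were read from 2 lists. Of 19 male-biased genes tested in MCD livers, 19 fell and 0 rose, with a median of -4.31, and of 24 female-biased genes 19 rose and 1 fell, with a median of 3.28, where 42.7% of all genes were called. Elovl3, a fatty acid elongase with male bias, averaged 3.56 log2 CPM in MCD livers and 10.05 in CD livers. Cyp2b9, a cytochrome P450 with female bias, averaged 8.46 in MCD livers and 0.21 in CD livers. In 4-week STAM livers 7 of 18 male-biased genes rose and 0 fell, while 4 of 24 female-biased genes rose and 5 fell, where 9.8% of all genes were called. Susd4, with male bias, rose by 2.70 (SE 0.32, limma adjusted p = 0.000284), and Cyp4a12a by 2.82 (SE 0.55, limma adjusted p = 0.0143). These rises began from low levels. In 4-week controls Susd4 averaged 0.06 log2 CPM, on 9 to 31 reads, and Cyp4a12a 2.97. The 10-week controls, scaled separately, averaged 2.96 and 8.48. Among female-biased genes Cyp3a41a rose by 4.45 at 4 weeks (SE 0.84, limma adjusted p = 0.0126). Cyp2b13 fell there by 2.73 (SE 0.44, limma adjusted p = 0.00614). In 10-week STAM livers 2 of 19 male-biased genes rose and 7 fell, and 4 of 24 female-biased genes rose and 4 fell. With 47.8% of all genes called there, 9 of 19 is near that share and 8 of 24 below it. Hsd3b5, a male-biased steroid enzyme, fell by 5.87 (SE 0.96, limma adjusted p = 0.00135), and Slco1a1, a male-biased transporter, by 2.32 (SE 0.46, limma adjusted p = 0.00301). By total reads 5 of 19 male-biased genes rose and 6 fell at 10 weeks, while the MCD count of 19 falls was the same. Of the 24 female-biased genes at 10 weeks 7 rose and 4 fell by total reads, whereas 4 rose and 7 fell by quantile scaling. Several of these belong to families of near-identical copies (Cyp2b, Cyp4a12, Mup), so their single values are uncertain. The STAM effect on male-biased genes was called lower at 10 than at 4 weeks for 12 of 18 and higher for 0. Among all genes 11.2% were called lower and 8.89% higher in that contrast. Of 24 female-biased genes 5 were called higher and 4 lower in it.

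Of 24 hepatocyte transcription factors, 13 fell and 0 rose in MCD livers, 3 fell and 1 rose in 4-week STAM livers, and 15 fell and 2 rose in 10-week STAM livers. Among all genes 42.7%, 9.8% and 47.8% were called, and 20.1%, 3.27% and 22.5% were called lower. Of 10208 genes in the upper 50% by mean level, 4939, 1115 and 5475 were called. Of those calls 41.9%, 56.4% and 38.2% were higher. Foxa1, a pioneer factor, fell by 1.67 (SE 0.16, limma adjusted p = 4.41e-06) in MCD livers. Nr0b2, a repressor in bile acid feedback, fell by 2.15 (SE 0.36, limma adjusted p = 0.000994) in 10-week STAM livers. By total reads 4 fell and 4 rose in MCD livers, and 6 fell and 5 rose in 10-week STAM livers. The fall of Foxa1 in MCD livers then read -1.25 (limma adjusted p = 3.54e-05).

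Likeness to each of 5 genes was measured as Pearson's r over the 28 livers, among 14848 genes. The values correlated were log2 CPM minus the mean of the control group of the same table. Model groups still differ in mean from their controls in these values, so r is given also after taking out group means. Igf1 was most like Cmah (r = 0.93, within groups 0.59), Keg1, Ulk2, Acsm1 and Hao1, and Ghr was the next at 0.91 (within groups 0.45). Socs2 was most like Wsb1 (0.87, within groups 0.45), Rp2h, Slc25a30 (0.83, within groups 0.84), Ugcg and Agtr1a. Cish was most like Foxq1 (0.85, within groups 0.78) and Onecut1 (0.85, within groups 0.54), then Arid5b, Zfp629 and Slc43a1. Cish and Bcl6 had r = -0.07. Bcl6 was most like Habp4 (0.89, within groups 0.56), Nhej1, Hist1h2bc, Aox3 and Ndufb3. Cux2 was most like Rab11b (0.83, within groups 0.71), Bin3, Papln, Sbf2 and Stab1.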

How the data were processed

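The authors' deposited tables give log2 CPM per gene and library, and gene length and position in columns of another kind. Per the submitters' processing notes the reads were aligned with STAR 2.4.2a to mm10. No source used here names the counter, the annotation release or the authors' test. The tables hold 28 library columns, all used. Values in every library came out as whole reads (100% within 0.05 of a read, with a prior of 0.25 reads), so depth was recovered from them. A count model had been planned only for raw counts, and the deposited log2 values were therefore tested with limma 3.58.1 (R 4.3.3, statmod 1.5.0) with a trended, robust prior, within each table. Genes under the 25th percentile of mean log2 CPM were left out. A level of 3 reads came to at most 0.200 CPM, and counting intervals cover counting error only. The comparison of effects used all 4 groups concerned in 1 fit. Replicate numbers did not pair samples, since correlations of same-numbered deviations ran from -0.12 to 0.01. All 10 genes are named, and from each list at most the 4 largest called genes per comparison. Igfbp3 at 10 weeks falls outside this rule and was chosen after its value was seen. The 10 genes and the lists were chosen with earlier results of these data known. The script was tested on simulated data. Alternatives were other scalings, filters, a prior of 2 reads, voom on recovered reads, plain limma, a replicate block and each library left out. The scalings were applied to the lists after the data were seen.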

Additional observations from a re-analysis of the deposited data

Results flagged for a closer look

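Among 60 sets of one gene in one group, 2 had a liver far from the others, where chance flags about 1 in 20. Bcl6 in 10-week STAM replicate 5 was 3.59 log2 CPM, below the other 4 STAM livers. Cux2 in 10-week control replicate 1 was -2.25 log2 CPM, below the other 4 controls, on 3 reads.

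Effects of STAM that differed between 10 and 4 weeks, by limma's test of the difference, were those on Socs2 (3.49), Onecut1 (2.85), Bcl6 (-2.66) and Igfals (-0.79). Effects that differed between MCD and 10-week STAM were those on Ghr (-1.25), Igf1 (-0.98), Stat5a (0.69), Stat5b (-0.65), Cish (-2.83) and Onecut1 (-3.50). In all, 20 such differences were tested for these genes.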

How the results depend on the processing

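Of 1055 values of the 10 genes under alternatives, 971 kept direction and side of the threshold, 54 lost the call, 14 gained it and 16 turned sign. Of 50 results, 28 held throughout. Without a filter 5 of the 10 genes were called in MCD, where more genes entered the adjustment. A replicate block, for numbers that do not pair the samples, gave 848 calls at 4 weeks and 2 of the 10 genes, with Cish at adjusted p = 0.100 and Onecut1 at 0.0595 in limma. It also ended the calls of Stat5a in MCD (limma adjusted p = 0.0582), Onecut1 at 10 weeks (0.0968) and Cish between models (0.0593). Leaving out 1 library gave 982 to 1821 calls at 4 weeks, the lowest without STAM replicate 1. Signs turned for Stat5a (0.13) and Stat5b (0.20) at 10 weeks under total reads, Stat5b under quantile scaling (0.077) and Bcl6 between models under quantile scaling (-0.070). Leaving out 1 library, the difference between models ran from -0.45 to 0.30 for Bcl6 and from -0.088 to 0.27 for Igfals, and Igf1 at 4 weeks from -0.16 to 0.0062. The cause was not tested. Few reads limit Cux2.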
